A study of Mus musculus with 8 samples.

Results

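The genes followed here encode receptors, surface proteins and transcription factors of lymphoid progenitors: Kit, Flt3, Il7r, Cd93, Erg, Sox4, Lef1, Myb, Spn and Arpp21. All probe sets that the array's platform annotation assigns to one of these symbols were taken, which gave 32 probe sets for 10 genes out of 34945 probe sets and 18193 genes with a single symbol. The study asked which transcripts differ between mouse cells that express a GFP reporter of activation-induced cytidine deaminase (AID) and cells without GFP. AID is the enzyme with which B cells diversify and switch their antibody genes. Total RNA was hybridised to Affymetrix expression arrays in 4 groups of 2 arrays. The first pair of groups was GFP-positive and GFP-negative bone marrow cells carrying BCR-ABL1, the fusion kinase of Philadelphia chromosome-positive leukaemia. The second pair was GFP-positive and GFP-negative splenic B cells treated with lipopolysaccharide (LPS) and interleukin 4 (IL-4). All 8 samples carried the reporter, and both GFP fractions of the bone marrow carried BCR-ABL1. The sources used here do not give strain, age, the vector that delivered BCR-ABL1, the length of stimulation or how cells were purified. They also leave unsaid whether replicates were separate mice or cultures, so p-values measure only the spread between these arrays, which may be technical.

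Blood cell progenitors read signals from their surroundings through receptor kinases and cytokine receptors, among them the stem cell factor receptor Kit, the Flt3 receptor and the interleukin 7 receptor, whose alpha chain is encoded by Il7r. In mice, IL-7 drives the growth of B cell precursors, and its receptor is lost as B cells mature. Transcription factors such as Myb, Erg, Sox4 and Lef1 are active in the same early stages, and the surface proteins CD93 (the AA4.1 antigen) and CD43 (encoded by Spn) are used to stain B cell precursors. Arpp21 encodes a cyclic AMP-regulated phosphoprotein that is best known from neurons.

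Start sites for 9 of the 10 genes were found in a RefSeq promoter table of the mouse build GRCm38.p6. The 250 bases before the start are shown for 5 genes that have a single start site there. Sox4, Myb, Il7r and Spn had a leading probe set that was lower in GFP-positive than in GFP-negative spleen cells and higher in BCR-ABL1 than in spleen GFP-positive cells, and Flt3 had the opposite pattern in both comparisons. Each sequence runs 5′ to 3′ on the gene's strand, and capitals mark matches on either strand to 4 core motifs: GGAAG of ETS factors such as Erg, AACNG of Myb, CTTTG of TCF/LEF factors and ACAAT of SOX factors. Overlapping matches are joined into 1 capital run.
Sox4, chr13:28953700-28953949, minus strand: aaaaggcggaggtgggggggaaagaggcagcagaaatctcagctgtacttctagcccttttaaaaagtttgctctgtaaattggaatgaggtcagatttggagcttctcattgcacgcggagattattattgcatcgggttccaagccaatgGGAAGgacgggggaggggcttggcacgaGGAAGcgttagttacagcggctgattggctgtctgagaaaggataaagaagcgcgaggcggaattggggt
Myb, chr10:21160985-21161234, minus strand: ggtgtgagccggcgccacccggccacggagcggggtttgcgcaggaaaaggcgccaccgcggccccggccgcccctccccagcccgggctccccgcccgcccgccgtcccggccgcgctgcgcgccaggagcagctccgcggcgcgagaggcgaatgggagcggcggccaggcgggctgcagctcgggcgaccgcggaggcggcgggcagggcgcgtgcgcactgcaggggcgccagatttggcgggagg
Il7r, chr15:9529877-9530126, minus strand: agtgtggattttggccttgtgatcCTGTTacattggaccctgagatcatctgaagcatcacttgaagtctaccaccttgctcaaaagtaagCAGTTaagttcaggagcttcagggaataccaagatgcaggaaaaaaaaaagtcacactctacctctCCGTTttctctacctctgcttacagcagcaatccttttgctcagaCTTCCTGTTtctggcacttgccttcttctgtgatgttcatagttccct
Spn, chr7:127137824-127138073, minus strand: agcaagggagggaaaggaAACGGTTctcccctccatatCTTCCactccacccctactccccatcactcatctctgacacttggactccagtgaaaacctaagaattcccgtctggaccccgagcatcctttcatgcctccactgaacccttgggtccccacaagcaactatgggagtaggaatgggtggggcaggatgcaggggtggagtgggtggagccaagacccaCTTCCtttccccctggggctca
Flt3, chr5:147400490-147400739, minus strand: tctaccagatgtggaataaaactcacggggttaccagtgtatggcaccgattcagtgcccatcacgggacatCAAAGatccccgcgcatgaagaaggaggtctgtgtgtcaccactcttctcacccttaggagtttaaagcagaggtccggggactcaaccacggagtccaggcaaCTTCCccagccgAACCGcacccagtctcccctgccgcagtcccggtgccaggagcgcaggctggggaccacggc
The Sox4 stretch held 2 ETS matches, and the Spn stretch held 2 ETS and 2 MYB matches. The Il7r stretch held 1 ETS and 4 MYB matches, and the Flt3 stretch held 1 match each for ETS, MYB and TCF/LEF. The Myb stretch, which is 81.2% G and C, held none of these letters, and no stretch held the SOX motif. These letters are common: among 32851 promoter stretches of the same length, 64.1% held the ETS motif, 74.2% the MYB motif, 48.6% the TCF/LEF motif and 27.7% the SOX motif. A match is a description and not a binding site.

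The 2 spleen GFP-negative arrays stood apart from the other 6. Their trimmed mean signals were 497 and 477, against 589 to 594 on the others, and their Spearman correlation with the spleen GFP-positive arrays over all probe sets was 0.842 to 0.850, while replicate arrays correlated at 0.984 to 0.996. The 3′ to 5′ signal ratio of Gapdh, a measure of RNA integrity, was 1.93 and 1.88 on them and 1.40 to 1.48 on the others. Of 18 myeloid marker genes, 16 had a probe set, and their summed normalized signal was 1140 to 1147 in spleen GFP-positive cells and 96412 to 98069 in spleen GFP-negative cells, where none of the 16 lay at the floor of 32 in both arrays. In spleen GFP-positive cells Csf1r, Itgam, Camp, Ngp, Elane and Clec7a lay at that floor. The 19 measured T and NK cell genes summed to 5144 to 5238 in spleen GFP-positive cells and 23817 to 25530 in spleen GFP-negative cells. The 10 measured mast cell and basophil genes summed to 501 to 526 in spleen GFP-positive cells and 2647 to 2894 in spleen GFP-negative cells. Most of the GFP-negative sum came from Hdc, Mcpt8 and Gata2, and Mcpt1, Mcpt4, Fcer1a and Ms4a2 lay at the floor there. In the BCR-ABL1 arrays the myeloid list summed to 1062 to 1259 and the T and NK list to 2834 to 3137. Pan-B cell genes were present in all 4 groups, at summed signals of 43850 to 44540 in BCR-ABL1 GFP-positive, 46979 to 47189 in BCR-ABL1 GFP-negative, 56079 to 58818 in spleen GFP-positive and 82271 to 83810 in spleen GFP-negative cells. Every contrast with the spleen GFP-negative arrays therefore also sets these marker levels apart, and their part in the results below was not tested.

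**Figure D1:**
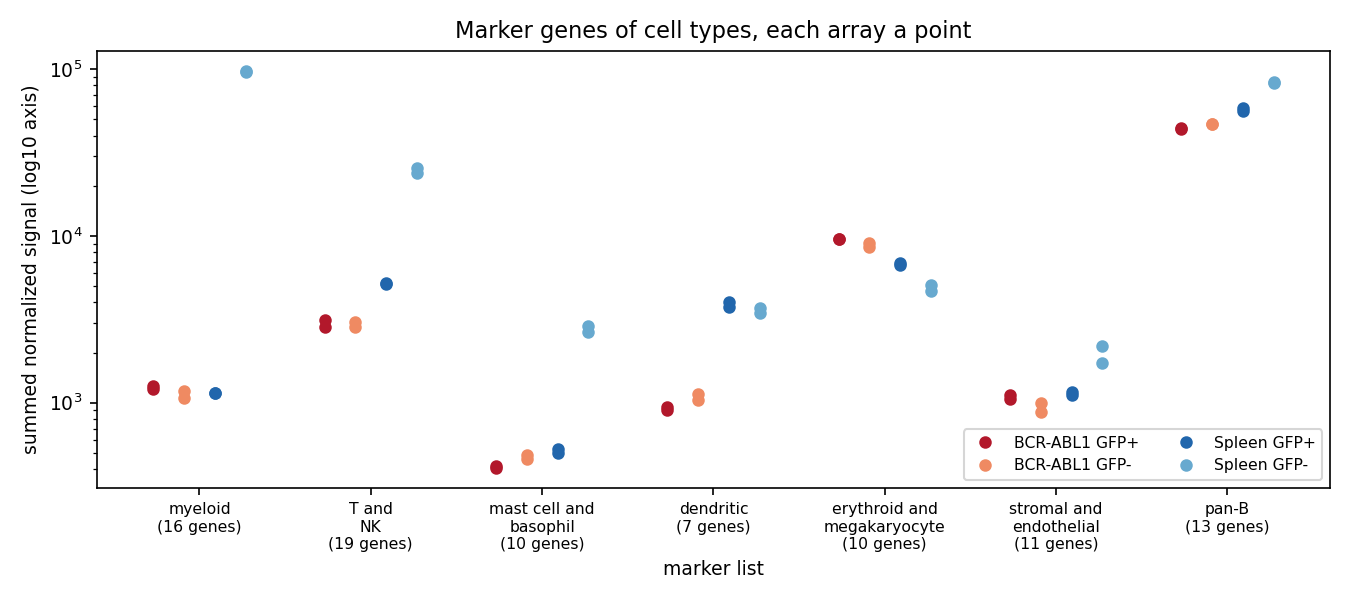
Summed normalized signal (log10 axis) of 7 lists of cell type marker genes, each array a point, in the order BCR-ABL1 GFP-positive, BCR-ABL1 GFP-negative, spleen GFP-positive and spleen GFP-negative. The spleen GFP-negative arrays lie above all others for the myeloid, T and NK, mast cell and basophil, stromal and endothelial, and pan-B lists.

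Signals below are quantile-normalized intensities, in which values under 32 were raised to 32. The leading probe set of a gene is its brightest over the 8 arrays, and signals of different probe sets are not compared with each other. Of the 32 probe sets, 23 in 9 genes passed the low-value filter (mean log2 value of at least 5.67, a signal of 51.0). They were tested with limma, with p-values adjusted over all 27022 tested probe sets and a threshold of 0.05. A probe set that is high in 1 group can pass for that reason alone, so counts over the tested probe sets are descriptions. Kit did not pass. With 2 arrays against 2, an exact permutation test cannot go below a two-sided p of 0.333, and all calls rest on the model.

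Kit, the stem cell factor receptor, had no probe set that passed the filter. Its leading probe set lay at the floor of 32 in both arrays of BCR-ABL1 GFP-positive, BCR-ABL1 GFP-negative and spleen GFP-positive cells, and reached 190.0 and 62.1 in the spleen GFP-negative arrays. The other Kit probe set lay at 32 on all 8 arrays. Kit signal was thus seen above the floor only in spleen GFP-negative cells, the arrays with the high myeloid marker sum. Of the 10 mast cell and basophil genes, 3 lay above the filter there. In groups with Kit at the floor this number was 4 in BCR-ABL1 GFP-negative, 4 in spleen GFP-positive and 2 in BCR-ABL1 GFP-positive cells. The summed signal of the list was 408 to 526 over the arrays of these groups, against 2647 to 2894 in spleen GFP-negative cells. Whether mast cells or basophils had a part in the Kit signal was not tested. Kit was not tested in the main fit, and at this signal a low level in the other groups was not detectable.

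**Figure D2:**
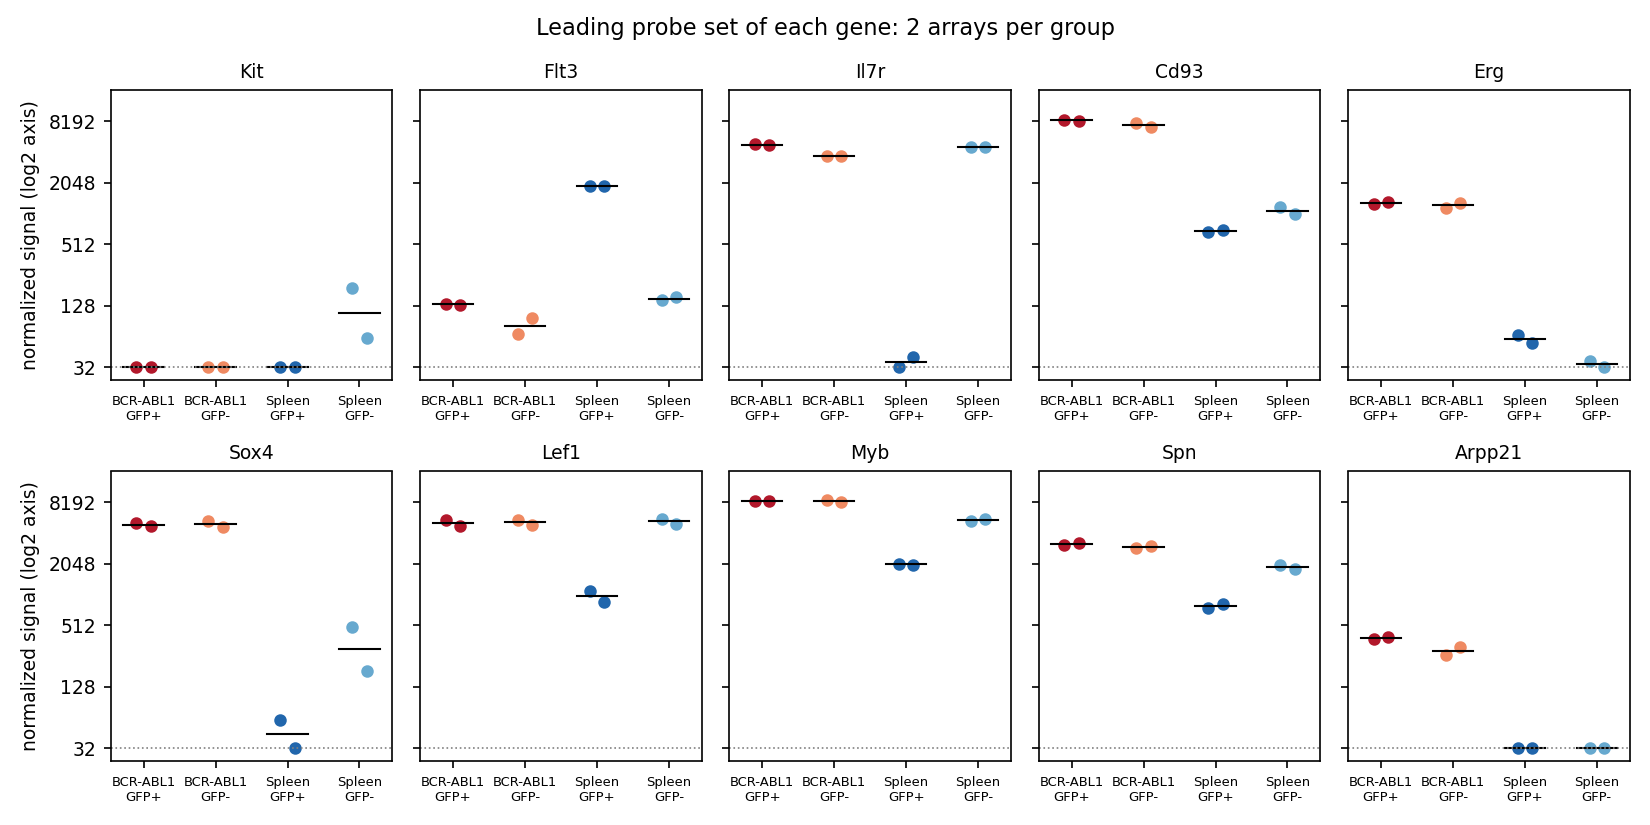
Normalized signal (log2 axis) of the leading probe set of each gene, with each array a point, each group mean a bar and the floor of 32 a dotted line. The BCR-ABL1 groups lie close together for each gene, Flt3 peaks in spleen GFP-positive cells, and Il7r, Sox4, Lef1, Myb and Spn are lowest there.

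In BCR-ABL1 cells, none of the 23 tested probe sets differed between GFP-positive and GFP-negative cells at an adjusted p under 0.05, while 2.8% of all tested probe sets did. At an unadjusted p under 0.05 there were 4 probe sets, of Flt3, Il7r and Arpp21, and the share over all probe sets was 11.5%. The log2 fold changes of the 23 ran from -0.15 to 0.71 with a median of 0.097, against a median of -0.0023 over all probe sets. Both fractions of the leukaemic cells thus carried signal above the floor for every gene but Kit.

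Among the receptors, Flt3 came closest to a difference. It measured 134 and 132 in BCR-ABL1 GFP-positive cells, against 68.3 and 96.8 in BCR-ABL1 GFP-negative cells. The groups did not overlap, and the log2 fold change was 0.71 ± 0.17 (SE, adjusted p = 0.0893 by limma). It passed the threshold when only the 4 BCR-ABL1 arrays were fitted (0.78, adjusted p = 0.0216 by limma), without the 2 spleen GFP-negative arrays (0.77, adjusted p = 0.0241) and without BCR-ABL1 GFP-negative replicate 2 (0.95, adjusted p = 0.0468). Without BCR-ABL1 GFP-negative replicate 1 it was 0.45 and did not pass, and over all alternatives its adjusted p lay between 0.0216 and 0.502.

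Il7r measured 4868 and 4776 in BCR-ABL1 GFP-positive cells, against 3784 and 3729 in BCR-ABL1 GFP-negative cells, on its leading probe set. Both GFP-positive arrays were higher, by 0.36 ± 0.10 on the log2 scale (adjusted p = 0.156 by limma), and the second probe set gave 0.41 ± 0.15 (adjusted p = 0.311 by limma). The 4 BCR-ABL1 arrays fitted alone put the leading probe set past the threshold (0.35, adjusted p = 0.000461 by limma). Leaving out either spleen GFP-positive array gave 0.36. The leading probe set did not pass on the deposited scale (0.35, adjusted p = 0.168 by limma) or with array medians made equal (0.36, adjusted p = 0.217 by limma). It passed in 5 of 20 alternatives, and the second probe set in 1 of 20. Cd93, a C-type lectin receptor, measured 8437 and 8272 in GFP-positive cells, against 7802 and 7277 in GFP-negative cells, a difference of 0.15 ± 0.083 that did not pass (adjusted p = 0.622 by limma).

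None of the transcription factors passed in BCR-ABL1 cells, and the log2 fold changes of their leading probe sets lay between -0.027 and 0.079. Myb, a regulator that keeps progenitors dividing, measured 8464 and 8369 in GFP-positive cells, against 8545 and 8314 in GFP-negative cells, and its log2 fold change was -0.0022 ± 0.044. Lef1, a DNA-binding partner of beta-catenin in Wnt signalling, measured 5503 and 4754 in GFP-positive cells, against 5480 and 4956 in GFP-negative cells. The fractions overlapped for both genes. Sox4, a high mobility group factor needed for early B cell development in mice, measured 5131 and 4759 in GFP-positive cells, against 5356 and 4710 in GFP-negative cells. Erg, an ETS factor of blood stem cells, measured 1255 and 1341 in GFP-positive cells, against 1167 and 1293 in GFP-negative cells. Both again overlapped, with adjusted p-values of 1.00 for Sox4 and 0.995 for Erg by limma.

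Spn and Arpp21 did not pass the test either. Spn measured 3126 and 3274 in BCR-ABL1 GFP-positive cells, against 2911 and 3075 in BCR-ABL1 GFP-negative cells (log2 fold change 0.097 ± 0.074). Arpp21 measured 375 and 395 in GFP-positive cells, against 262 and 316 in GFP-negative cells (0.42 ± 0.14, adjusted p = 0.226 by limma). The groups did not overlap on these leading probe sets, which with 2 arrays against 2 is a two-sided p of 0.333 by exact permutation. They did overlap on the other tested Arpp21 probe sets (0.38 ± 0.19 and 0.071 ± 0.20).

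In the stimulated spleen cells, most of these genes differed between the GFP fractions. Il7r, Lef1, Myb and most probe sets of Sox4 were lower in GFP-positive cells, Flt3 and the weak Erg signal were higher, and Cd93 and Spn had probe sets that went in opposite directions. Of the 23 tested probe sets, 20 passed, 6 higher and 14 lower, but 78.2% of all tested probe sets passed in this comparison (44.9% higher and 33.3% lower), so the count is near the background. The median log2 fold change was -0.66 for the 23 and 0.17 for all tested probe sets. Fewer cells of a type and less RNA per cell cannot be told apart in such bulk samples.

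Il7r had the largest difference of the members. Its leading probe set measured 32.6 and 40.6 in spleen GFP-positive cells, against 4579 and 4553 in spleen GFP-negative cells. The GFP-positive signal lay just above the floor (-6.97 ± 0.10, adjusted p = 9.8e-09 by limma, and -7.12 to -6.07 over the alternatives). On the second probe set GFP-positive cells were at the floor of 32 in both arrays and GFP-negative cells measured 419 and 335, so they were at least 11.7-fold lower. IL-7 receptor transcripts are also carried by T cells, whose marker genes were higher in the GFP-negative arrays as given above. The part of T cells in the Il7r difference was not tested.

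Flt3 was the receptor that went the other way. It measured 1914 and 1884 in spleen GFP-positive cells, against 145 and 156 in spleen GFP-negative cells. Flt3 thus rose 12.6-fold in the GFP-positive cells (3.66 ± 0.17, adjusted p = 4.8e-07 by limma), and the arrays of the fractions were far apart compared with their spread. It rests on 1 probe set, the sole Flt3 probe set in the annotation.

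Among the transcription factors, Myb fell on all 3 of its probe sets, by 1.44, 1.90 and 2.06 on the log2 scale. Its leading probe set measured 2057 and 1974 in spleen GFP-positive cells, against 5321 and 5621 in spleen GFP-negative cells (adjusted p = 6.4e-08 by limma). Lef1 fell 5.39-fold on its leading probe set, with 1114 and 872 in GFP-positive cells, against 5562 and 5069 in GFP-negative cells (-2.43 ± 0.12). The dimmer Lef1 probe set also passed (-0.55 ± 0.22, adjusted p = 0.045 by limma), but not without any 1 array other than spleen GFP-negative replicate 2 (adjusted p from 0.0576 to 0.221 by limma). Without that array it was -0.90, and without spleen GFP-negative replicate 1 it was -0.23. Lef1, like Il7r, is known as a T cell gene as well as a progenitor gene, and the part of T cells was not tested.

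Sox4 fell on 4 of its 5 tested probe sets. The leading one measured 60.004 and 32 in spleen GFP-positive cells, against 492 and 182 in spleen GFP-negative cells. One GFP-positive array was at the floor and the GFP-negative arrays differed from each other, so the difference has a wide error (-2.77 ± 0.44, adjusted p = 0.000531 by limma). A tighter probe set measured 46.3 and 56.4 in GFP-positive cells, against 280.2 and 273 in GFP-negative cells (-2.44 ± 0.14). One of the 4 fell by 0.62 and missed the threshold on the deposited scale (-0.38, adjusted p = 0.0982 by limma), and without spleen GFP-positive replicate 1 (-0.30, adjusted p = 0.0965) or either spleen GFP-negative array (adjusted p = 0.0563 and 0.0935). Without spleen GFP-positive replicate 2 it was -0.94. Another of the 4 was at the floor in both GFP-positive arrays, at least 2.42-fold lower, and missed the threshold with the floor set at 64 (-0.27, adjusted p = 0.0852 by limma). The fifth probe set had overlapping groups and did not pass (-0.15 ± 0.20, adjusted p = 0.515 by limma).

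Erg signal was low in the spleen. Its leading probe set measured 66.0 and 55.7 in spleen GFP-positive cells, against 36.9 and 32 in spleen GFP-negative cells (0.82 ± 0.14, adjusted p = 0.000902 by limma). The second probe set lay at the floor in both GFP-negative arrays and was at least 1.79-fold higher in GFP-positive cells, at 52.8 and 62.0. With the floor set at 64, above nearly all of these signals, both calls were lost, at log2 fold changes of 0.022 and 0.00.

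**Figure D3:**
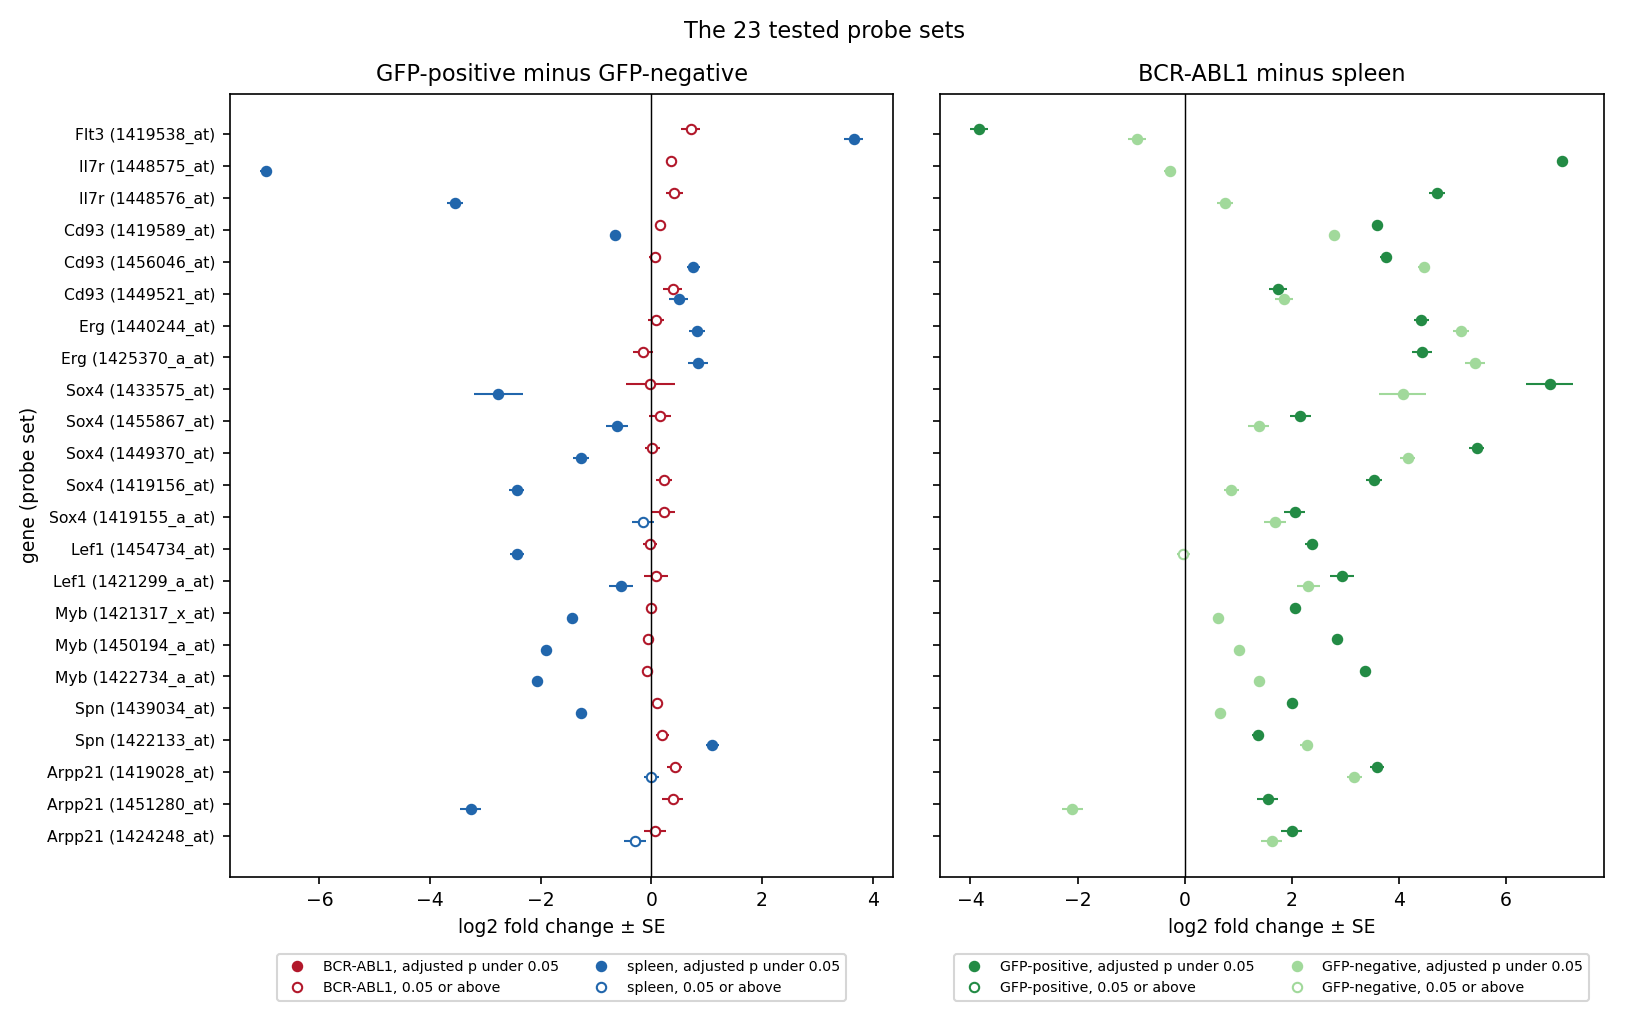
Log2 fold changes with standard errors from limma for the 23 tested probe sets, GFP-positive minus GFP-negative on the left (BCR-ABL1 in red, spleen in blue) and BCR-ABL1 minus spleen on the right (GFP-positive in dark green, GFP-negative in light green). Filled points have an adjusted p under 0.05. The BCR-ABL1 GFP differences cluster near 0, and all GFP-positive source differences but that of Flt3 are above 0.

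Probe sets of 2 genes disagreed in direction between the spleen fractions. The brighter Spn probe set measured 761 and 825 in spleen GFP-positive cells, against 1993 and 1824 in spleen GFP-negative cells, and fell by 1.27 on the log2 scale (0.73 after the arrays were shifted to equal medians). The dimmer one measured 178 and 186 in GFP-positive cells, against 81.4 and 88.6 in GFP-negative cells, and rose by 1.10. Both passed (adjusted p = 1.53e-06 and 4.4e-05 by limma), so no single direction can be given for the CD43 gene. The leading Cd93 probe set measured 676 and 704 in spleen GFP-positive cells, against 1187 and 1003 in spleen GFP-negative cells (-0.66 ± 0.083). That fall did not pass on the deposited scale (-0.17, adjusted p = 0.188 by limma) or with array medians made equal (-0.010, adjusted p = 0.943). The next Cd93 probe set measured 209.9 and 208 in GFP-positive cells, against 114 and 133 in GFP-negative cells, and rose (0.76 ± 0.11).

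The third tested Cd93 probe set rose by 0.50 ± 0.17 on the log2 scale in spleen GFP-positive cells (adjusted p = 0.0291 by limma), but not without either spleen GFP-negative array, either BCR-ABL1 GFP-positive array (adjusted p from 0.0542 to 0.0863 by limma) or spleen GFP-positive replicate 2 (0.29, adjusted p = 0.195 by limma). Arpp21 differed by probe set too. Its leading probe set lay at the floor in all 4 spleen arrays, while another measured 33.1 and 32 in spleen GFP-positive cells, against 330.2 and 298 in spleen GFP-negative cells (-3.27 ± 0.19, adjusted p = 1.67e-06 by limma). The last tested Arpp21 probe set stayed at or near the floor in the spleen and did not pass (-0.30 ± 0.20), except without spleen GFP-negative replicate 1 (-0.58, adjusted p = 0.00676 by limma).

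**Figure D4:**
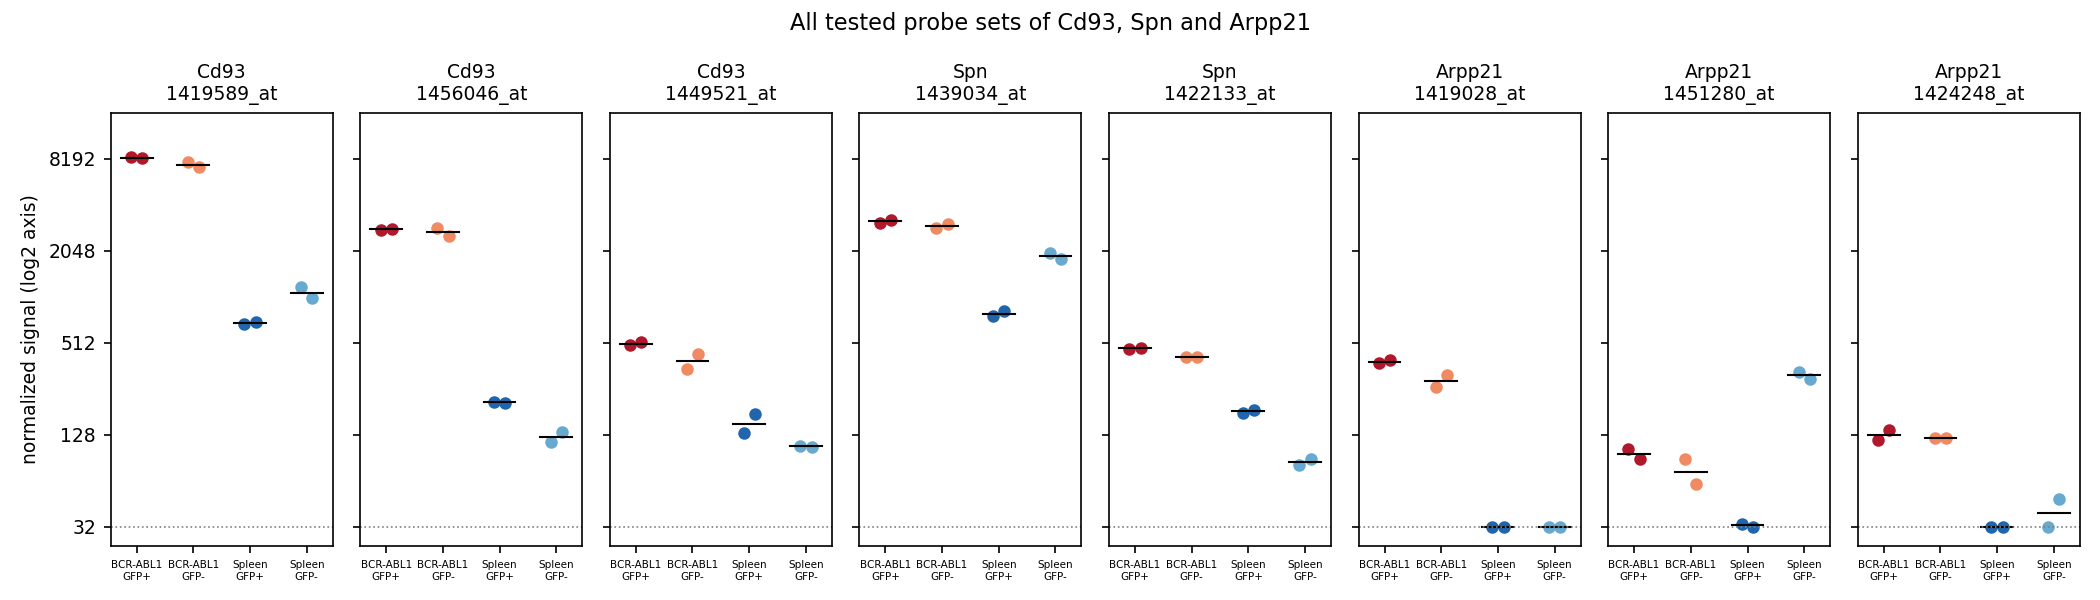
Normalized signal (log2 axis) of all tested probe sets of Cd93, Spn and Arpp21, each array a point, each group mean a bar and the floor a dotted line. The 2 Spn probe sets run in opposite directions between the spleen fractions, and 1 of 3 Arpp21 probe sets is highest in spleen GFP-negative cells.

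The GFP difference was itself compared between the sources, as the BCR-ABL1 difference minus the spleen difference. It passed for 18 of the 23 tested probe sets, 13 higher and 5 lower, against 69.8% of all tested probe sets (29.5% higher and 40.3% lower). The median was 0.81 for the 23 and -0.18 for all. Among called probe sets, Il7r, Sox4, Lef1, Myb and Arpp21 had positive values and Flt3 and Erg negative ones. Cd93 and Spn had probe sets of either sign.

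When BCR-ABL1 GFP-positive cells were set against spleen GFP-positive cells, the progenitor genes were higher in the leukaemic cells on every tested probe set except that of Flt3. All 23 tested probe sets passed, 22 higher and 1 lower, against 44.0% of all tested probe sets (22.4% higher and 21.6% lower). The median log2 fold change was 2.94 for the 23 and -0.026 for all tested probe sets. A probe set could pass the filter through its BCR-ABL1 signal alone. The leading Arpp21 probe set did so, with both spleen groups at the floor. The count and median are therefore descriptions. This comparison does not use the spleen GFP-negative arrays in its means, and without them all 23 still passed. Cell source, transformation and stimulation differ together here and cannot be told apart.

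Among the receptors, Il7r was higher in BCR-ABL1 GFP-positive than in spleen GFP-positive cells (7.05 ± 0.10, adjusted p = 6.13e-09 by limma). With spleen signal close to the floor, this log2 difference ran from 6.15 to 7.20 over the alternatives. Cd93 was 12.1-fold higher on its leading probe set (adjusted p = 3.27e-08 by limma), and its other tested probe sets were also higher, by 3.77 and 1.74 on the log2 scale. Flt3 alone was lower, 14.3-fold (-3.84 ± 0.17, adjusted p = 9.94e-07 by limma). Flt3 and Il7r thus stood in opposite order between leukaemic and splenic GFP-positive cells.

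All tested probe sets of the 4 transcription factors were higher in BCR-ABL1 GFP-positive cells. Sox4 was higher by 6.82 ± 0.44 on the log2 scale on its leading probe set (6.03 to 7.26 over the alternatives), where 1 spleen array was at the floor. Of its other 4 tested probe sets, 3 were higher by 2.05, 2.16 and 3.54 on the log2 scale, and the last by at least 5.46. Erg was 21.4-fold and 21.5-fold higher on its probe sets (4.42 ± 0.14 and 4.43 ± 0.18). Myb was 4.18-fold, 7.18-fold and 10.4-fold higher, with the smallest value on its brightest probe set. Lef1 was 5.19-fold and 7.66-fold higher. For the surface protein gene Spn the probe sets, which disagreed within the spleen, both gave higher signal, 4.04-fold and 2.59-fold. Arpp21 was higher by at least 3.59 on the log2 scale on its leading probe set, where spleen GFP-positive cells were at the floor, and the others were higher by 1.55 and at least 2.00 on the log2 scale.

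Between BCR-ABL1 GFP-negative and spleen GFP-negative cells, 22 of 23 tested probe sets passed, 19 higher and 3 lower, against 78.9% of all tested probe sets (45.5% higher and 33.4% lower). The median log2 fold change was 1.62 for the 23 and 0.17 for all. The limit that the filter sets on the count and median holds in this comparison too. Here the genes differed in how far apart the sources were. The leading Lef1 probe set did not pass, with 5480 and 4956 in BCR-ABL1 GFP-negative cells, against 5562 and 5069 in spleen GFP-negative cells (-0.027 ± 0.12, adjusted p = 0.848 by limma), while the dimmer Lef1 probe set was 4.94-fold higher in BCR-ABL1 GFP-negative cells (2.31 ± 0.22, adjusted p = 2.09e-05 by limma). Il7r was slightly lower on its leading probe set (-0.28 ± 0.10, adjusted p = 0.034 by limma), a call lost on the deposited scale (-0.13, adjusted p = 0.291 by limma) and without any 1 of the 4 GFP-negative or 2 BCR-ABL1 GFP-positive arrays (adjusted p from 0.0615 to 0.121 by limma), and higher on its second (0.75 ± 0.15, and 1.29 on the deposited scale).

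Erg and Sox4 were also higher in the GFP-negative comparison. Erg was higher by 5.16 ± 0.14 on the log2 scale in BCR-ABL1 GFP-negative cells on its leading probe set (4.26 to 5.30 over the alternatives), where 1 spleen array was at the floor, and at least 42.8-fold higher on the other. Sox4 was 16.8-fold higher on its leading probe set (4.07 ± 0.44, and 3.31 to 4.78 over the alternatives), and 17.9-fold, 3.21-fold, 2.60-fold and 1.82-fold higher on the others. Myb was 1.54-fold, 2.01-fold and 2.62-fold higher on its probe sets, and Cd93 was 6.91-fold higher on its leading one. Flt3 was lower (-0.89 ± 0.17, adjusted p = 0.00157 by limma). Arpp21 was at least 8.98-fold higher on its leading probe set and 4.28-fold lower on the probe set that was high in spleen GFP-negative cells.

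The order of the 4 groups therefore differed from gene to gene. It is given for the leading probe sets, and BCR-ABL1 GFP-positive cells were not tested against spleen GFP-negative cells. For Myb and Spn it was both BCR-ABL1 groups, spleen GFP-negative, spleen GFP-positive, with no call between the BCR-ABL1 groups, but on the dimmer Spn probe set the spleen groups stood the other way round. For Il7r the BCR-ABL1 groups lay 1.28-fold apart, with no call, and spleen GFP-positive cells were far below. Spleen GFP-negative cells lay between the BCR-ABL1 groups, but the call between the GFP-negative groups was lost on 2 other scales. On the second Il7r probe set spleen GFP-negative cells, at 377, lay below both BCR-ABL1 groups, at 839 and 633. For Lef1 the arrays of these 3 groups overlapped and spleen GFP-positive cells were lower, whereas on the dimmer probe set both spleen groups were below the BCR-ABL1 groups. For Sox4 and Cd93 the BCR-ABL1 groups, not called apart, were above spleen GFP-negative and then spleen GFP-positive cells, although the spleen order of Cd93 was lost on 2 other scales and turned on its other 2 tested probe sets. For Arpp21 the BCR-ABL1 groups were above both spleen groups, which lay at the floor. On another Arpp21 probe set spleen GFP-negative cells were highest, at 314, against 95.8 and 74.5 in the BCR-ABL1 groups. The leading Erg probe set had the same split as that of Arpp21, with spleen GFP-positive above spleen GFP-negative cells near the floor. Flt3 was highest in spleen GFP-positive cells, and BCR-ABL1 GFP-negative cells were below spleen GFP-negative cells. The place of the BCR-ABL1 GFP-positive cells depended on the scale, since the deposited Flt3 values were 141.59 and 137.75 in them, against 133.94 and 137.38 in spleen GFP-negative cells.

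Other genes of the same pathways were counted from lists of related genes, each gene by its brightest tested probe set, with 4.08% of 12223 genes passing for GFP in BCR-ABL1 cells, 76.9% for GFP in spleen cells and 48.8% for source in GFP-positive cells. Of 21 tested cytokine receptor partners, ligands and signalling genes, none passed in BCR-ABL1 cells, and 5 rose and 9 fell in spleen GFP-positive cells. Cish, a STAT5-induced inhibitor of cytokine signalling, measured 978 ± 13.2 in spleen GFP-positive and 101 ± 2.63 in spleen GFP-negative cells (SD, n = 2 each). The kinase Jak3, which acts with the IL-7 receptor through the shared gamma chain, rose by 2.39 ± 0.12 on the log2 scale. In GFP-positive cells 8 genes of the list were higher and 7 lower in BCR-ABL1 than in spleen cells, led by the adaptor Gab2 (3.41 ± 0.15) and the signalling inhibitor Socs2 (2.82 ± 0.072).

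Of 32 tested progenitor and early lymphoid transcription factors outside the 10 genes, 1 rose and 1 fell with GFP in BCR-ABL1 cells. Nfil3, a bZIP factor, rose (0.66 ± 0.11), with 114 ± 6.81 in GFP-positive and 72.1 ± 0.875 in GFP-negative cells, and Gfi1, a zinc finger repressor of blood cell progenitors, fell (-1.82 ± 0.16), with 109 ± 12.3 in GFP-positive and 386 ± 11.7 in GFP-negative cells (SD, n = 2 each). In spleen GFP-positive cells 10 rose and 16 fell. Meis1, Ikzf2 and Gata3 were at the floor there in both arrays, and measured 620 ± 8.71, 717 ± 41.1 and 320 ± 72.4 in spleen GFP-negative cells (SD, n = 2 each). Nfil3 rose there too (3.66 ± 0.11). In GFP-positive cells 14 were higher and 7 lower in BCR-ABL1 than in spleen cells, with Mycn, a MYC family member, at 9700 ± 191 in BCR-ABL1 and 70.3 ± 2.02 in spleen cells, and Lmo2, a LIM-domain adaptor, at 176 ± 1.82 in BCR-ABL1 and 5219 ± 120 in spleen cells (SD, n = 2 each).

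Among 19 tested TCF/LEF and Wnt pathway genes, 2 fell with GFP in BCR-ABL1 cells and none rose. Axin2, a feedback target of Wnt signalling, measured 169 ± 20.0 in GFP-positive and 434 ± 0.91 in GFP-negative cells (SD, n = 2 each; -1.36 ± 0.15), and the Wnt receptor Fzd6 fell by 1.84 ± 0.17, while Lef1 itself did not differ there. In spleen GFP-positive cells 5 rose and 8 fell, among them Tcf7l2, a relative of Lef1 (-3.91 ± 0.17). In GFP-positive cells 10 were higher and 1 lower in BCR-ABL1 than in spleen cells.

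Of 14 tested MYB, SOX and ERG relatives, 1 fell with GFP in BCR-ABL1 cells, Sox6 (-1.21 ± 0.13), and 5 rose and 7 fell in spleen GFP-positive cells. Mybl2, the cell cycle relative of Myb, went against Myb in the spleen, with 1546 ± 52.4 in GFP-positive and 35.8 ± 5.32 in GFP-negative cells (SD, n = 2 each; 5.44 ± 0.13), where 1 GFP-negative array was at the floor. Of 20 tested genes of early B cell stages, 5 rose and 1 fell with GFP in BCR-ABL1 cells, against 4.08% of all genes. In spleen GFP-positive cells 3 rose and 13 fell, against 76.9% of all genes in either direction. In GFP-positive cells 16 were higher and 4 lower in BCR-ABL1 than in spleen cells, against 48.8% of all genes. Dntt, the terminal transferase of immunoglobulin and T cell receptor rearrangement, was highest in difference (7.42 ± 0.12), at 8215 ± 273 in BCR-ABL1 and 48.3 ± 7.91 in spleen cells (SD, n = 2 each).

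The genes whose pattern over the 8 arrays was most like each member were found among 12223 genes by the root mean square difference of centred log2 signals, which is given as a description. Ptprs, a receptor phosphatase, followed Myb most closely, at a difference of 0.024. Adgrg1, an adhesion receptor, followed Erg at 0.065, and Adgrl2, another of that family, followed Cd93 at 0.091, with the surrogate light chain-associated gene Vpreb3 also among its nearest at 0.14. For Spn the nearest was Iqgap2 (0.095), for Arpp21 Armcx1 (0.078), for Lef1 Rell1 (0.17) and for Flt3 Mef2b (0.28), a transcription factor of germinal centre B cells. The nearest to Sox4 was Syndig1l, at 0.57, and to Il7r Ctla2a, at 0.76. Kit, which lay above the floor in 1 group, was nearest to Lyve1 (0.22).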

How the data were processed

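RNA of 8 samples was measured on mouse Affymetrix arrays, and the authors deposited 1 table of intensity values per probe set on a linear scale, made with GCOS 1.3 per the submitters' processing notes. The probe summary, the array scaling and detection calls are not given in these sources. Groups were taken from the labels. From 45101 probe sets, 64 controls were left out. The other 45037 were quantile normalized, because trimmed means differed between arrays. Values under 32 were set to 32 and log2 transformed. A filter at the 40th percentile of mean log2 values (5.67, a signal of 51.0) left 27022 to be tested. Symbols came from GEO's platform annotation, and Entrez IDs changed 0 of them.

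All 8 arrays were fitted with limma 3.58.1 in R 4.3.3 (lmFit, eBayes with trend). The model had a mean for each of the 4 groups, leaving 4 residual degrees of freedom. Contrasts were GFP-positive minus GFP-negative in each source, their difference, and BCR-ABL1 minus spleen within each GFP fraction. p-values were two-sided and adjusted by Benjamini-Hochberg over all tested probe sets, with a threshold of 0.05, and fits were tested on simulated data. A fold against a group at 32 in both arrays is a lower bound.

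The genes, the lists of related genes and of markers, and the tests were chosen with earlier results of these data known. All 32 probe sets of the 10 genes were taken, and the 23 tested ones enter the counts of every contrast. The text does not give each of their values in each contrast, and gives none for the untested probe sets of Cd93, Sox4 and Arpp21. Of the other lists, the text names some of the genes with the largest called differences in a contrast (up to 4 per list), and genes at the floor. Alternatives changed the scale, floor, filter, variance model and arrays used. No batch or scan date was available in the table. The reporter's own gene was left out. The number of arrays limits precision.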

Additional observations from a re-analysis of the deposited data

Results flagged for a closer look

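The GFP difference itself differed between BCR-ABL1 and spleen cells for 18 of the 23 tested probe sets (interaction term of the limma fit, adjusted p under 0.05), 13 of them higher and 5 lower in BCR-ABL1 cells, against 69.8% of all tested probe sets (29.5% higher and 40.3% lower). All values here are log2 differences, BCR-ABL1 effect minus spleen effect. Both Il7r probe sets were flagged, at 7.33 and 3.96, and Flt3 at -2.95. The 3 Myb probe sets gave 1.44, 1.84 and 1.98, and the leading Lef1 probe set gave 2.40. For Sox4, 4 probe sets gave 2.75, 0.78, 1.29 and 2.67, of which that of 0.78 missed the threshold on the deposited scale (0.55, adjusted p = 0.0988 by limma) and when any array other than spleen GFP-positive replicate 2 was left out (adjusted p from 0.0681 to 0.106 by limma), and that of 1.29 missed it at a floor of 64 (0.29, adjusted p = 0.182 by limma). The Erg probe sets gave -0.74 and -0.99. The first missed the threshold without BCR-ABL1 GFP-positive replicate 1 (-0.69, adjusted p = 0.0546 by limma), and both missed it at a floor of 64. Arpp21 was flagged on 1 probe set, at 3.65.

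The 2 genes whose probe sets disagreed within the spleen disagreed here as well. The Spn probe sets gave 1.36 and -0.90, and the Cd93 probe sets 0.81 and -0.70. The Cd93 value of 0.81 was 0.30 on the deposited scale (adjusted p = 0.118 by limma). In each of these contrasts the spleen effect rests on the 2 GFP-negative arrays that also held the myeloid, T and NK cell marker signal, whose part in the difference was not tested.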

How the results depend on the processing

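The 23 probe sets called between BCR-ABL1 and spleen GFP-positive cells were called under every alternative that tested them. So were 13 of 20 called for GFP in the spleen, 13 of 18 called for the difference of GFP effects and 21 of 22 called between the GFP-negative groups. For GFP in BCR-ABL1 cells, 756 probe sets passed in all and 0 of these genes. The counts were 2159 and 3 with the 4 BCR-ABL1 arrays alone, 1674 and 1 without the spleen GFP-negative arrays (chosen after seeing the data), and from 197 to 1091 and from 0 to 1 when each array was left out. At a floor of 64, and with log2 of the value plus 32, 1 probe set of these genes passed. The difference of GFP effects for Erg turned to 0.057 (adjusted p = 0.72 by limma) at a floor of 64, which lies at or above nearly all spleen Erg signals. The median of all log2 fold changes for GFP in the spleen was 0.17 after quantile normalization, 0.35 as deposited and 0.51 with array medians made equal. The share of calls that were higher was 57.4%, 65.2% and 71.1% on these scales. It was 42.3%, 33.9% and 28.4% for the difference of GFP effects and 57.6%, 66.4% and 70.6% between the GFP-negative groups. Replicate numbers gave correlated deviations of 0.11 in BCR-ABL1 and 0.27 in spleen cells over 27022 probe sets, with 2 pairs too few to show pairing. With the replicate number as a block, 748, 21713, 19609, 12992 and 22067 probe sets passed for GFP in BCR-ABL1 cells, GFP in spleen, their difference, source in GFP-positive and source in GFP-negative cells, of which 0, 20, 18, 23 and 22 belonged to these genes.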
